A study of Mus musculus with 202 samples.

Results

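A group of cultured mouse pancreatic ductal adenocarcinoma cells with hardly any mitochondrially encoded RNA is described here. Their line, of KPC strain, came from a liver metastasis of a male animal and was used at passages 4 to 6. Both groups of the study come from this one line. Trypsinized cells were stained for the adhesion protein E-cadherin and separated by flow cytometry into Ecad+ and Ecad- cells, with no drug or other agent named, before capture on a Fluidigm C1 device and SMARTer amplification. Of 197 cells in the series, 97 are Ecad- cells, and 40 of those form the subset described here. These 40 cells were selected on the mitochondrial share, the part of a cell's summed TPM, a length-scaled unit of transcript abundance, that falls on genes whose symbol starts with mt-. A share under 1% placed an Ecad- cell in the subset, here called low-share cells, and the remaining 57 are called other Ecad- cells. The 99 Ecad+ cells with a share of 1% or more serve as a reference. No label names separate cultures, so each class is 1 sample of cells. Differences between classes therefore lack a check by replicates, and p-values are not given. The 3 library sets, named by a suffix of the library names whose meaning is not stated, are the only repeat within the data.

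Mitochondria keep a small genome of their own, whose messenger RNAs encode subunits of the respiratory chain complexes I, III, IV and V. All other subunits, as well as the ribosomal proteins, polymerase and import machinery of the organelle, are encoded in the nucleus. Mitochondrial RNA is usually among the most abundant RNA of a cell, and its share is widely used as a measure of cell condition in single-cell work. Lysosomes are the degradative organelles of the cell and receive worn-out mitochondria by autophagy. A vacuolar proton pump keeps them acidic, and the transcription factors TFEB and TFE3 control many lysosomal genes through short palindromic promoter elements.

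The values that defined the subset are a description and not a finding. Low-share cells had shares from 0% to 0.648% with a median of 0.0954%, and the other Ecad- cells from 1.44% to 66.4% with a median of 24.3%. Just inside the limit lay cells at 0.648% and 0.611%, and just outside it cells at 1.44% and 1.75%. In all, 6 Ecad- cells had a share from 0.5% to below 2%. Low-share cells made up 6 of 33 libraries in set 1, 12 of 32 in set 2 and 22 of 33 in set 3, or 18.2% (exact Clopper-Pearson 95% interval 6.98% to 35.5%), 37.5% (21.1% to 56.3%) and 66.7% (48.2% to 82.0%). These intervals cover counting error only, as if cells were independent draws. Among 100 Ecad+ cells a single one, in set 1, fell below the limit, at 0.269%. The plot of shares by library set shows Ecad- cells on both sides of the limit in every set. One pair of Ecad- libraries correlated at 0.984 and was averaged as 1 cell, although the shares of its libraries were 37.5% and 11.4%.

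**Figure D1:**
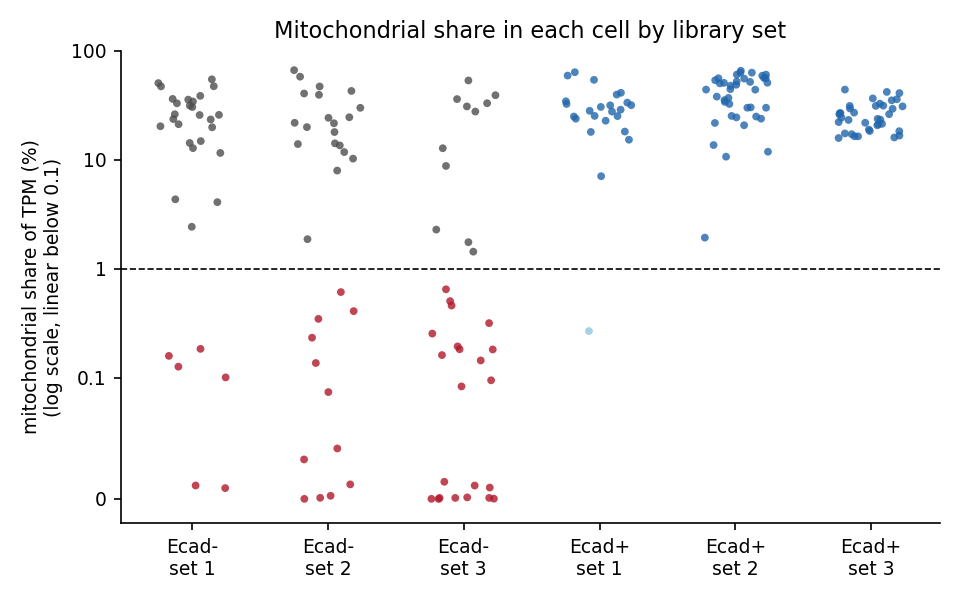
Mitochondrial share of TPM in each cell (vertical axis, logarithmic above 0.1% and linear below) for Ecad- and Ecad+ cells of the 3 library sets. Red points are the low-share Ecad- cells, grey points the other Ecad- cells, dark blue points Ecad+ cells and the light blue point the single Ecad+ cell below the dashed line at 1%. Low-share cells reach 0.648% and the next Ecad- cell stands at 1.44%.

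The low-share cells were not free of mitochondrial RNA. Of 40 low-share cells, 36 had at least 1 of the 13 mitochondrial messenger RNAs at 1 TPM or more, with a median of 6, and 1 cell had all 13 listed at exactly 0. Every other Ecad- cell had at least 11 of them at that level. The median sum over the 13 genes, on the deposited scale, was 917 TPM in low-share cells against 234827 TPM in the other Ecad- cells. Of what remained, mt-Atp8 made up 68.7% of the mitochondrial TPM in low-share and 79.5% in other Ecad- cells, and mt-Co3, a subunit gene of complex IV, 11.2% and 4.84%. All 13 genes, which the selection used, had log2 ratios between -7.70 for mt-Atp8 and -5.68 for mt-Nd4l. Gm10222, a nuclear gene with a mitochondrial-like sequence that the selection did not use, had the same pattern. Its mean was 7.87 TPM in low-share and 707 TPM in other Ecad- cells, and 9 of 40 low-share against 57 of 57 other Ecad- cells reached 1 TPM. Reads of such a copy cannot be told apart from those of the mitochondrial genome.

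The numbers of detected genes in low-share and other Ecad- cells overlapped widely. Low-share cells had 5565 to 10754 genes above 0 with a median of 8547, against 4168 to 12051 with a median of 8745 in the other Ecad- cells and a median of 10341 in Ecad+ cells. At 10 TPM or more the medians were 4619.5, 4419 and 4752 genes. TPM keeps no read depth, so depth per cell is unknown. Epithelial identity, checked with Cdh1, Epcam, Krt7, Krt8, Krt18 and Krt19, was present with fewer markers: 34 of 40 low-share cells had at least 3 of these 6 markers at 1 TPM, as did 56 of 57 other Ecad- and 99 of 99 Ecad+ cells. No low-share cell lacked all 6.

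From here on, each cell was rescaled to 1000000 without its mt- genes, so that the removed RNA does not inflate the rest, and levels are means over cells on that scale. Ratios are log2 of the low-share mean over the other Ecad- mean, with 1 TPM added to each, which understates differences of low genes. Because the classes were spread unevenly over the library sets, pooled ratios can also carry differences between sets. Over the 7918 genes above a floor (a mean over Ecad- cells of 5 TPM or more, with 10% or more of these cells above 0) the median ratio was 0.0021, and within sets 1 to 3 it was -0.13, 0.03 and 0.17. On the deposited scale that median was 0.41. Relative to the median of all genes, 761 genes (9.61%) stood at least 2-fold higher in low-share cells and 920 genes (11.6%) at least 2-fold lower. Above the median in each of the 3 sets were 1842 genes (23.3%), and below it in each set 1865 genes (23.6%). These percentages are the background against which the members of each gene list are read. The floor is taken over both classes together, so a gene can pass it through a single class, and counts past the floor include such genes. List medians below are given relative to the median of all genes.

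Nuclear-encoded mitochondrial genes showed no such gap. The 78 nuclear subunit genes of the respiratory chain, all above the floor, had a median log2 ratio of 0.14 (0.29, 0.12 and -0.21 within sets 1 to 3), with 4 at least 2-fold higher and 3 at least 2-fold lower. By complex the medians were 0.12 for complex I, 0.32 for the wholly nuclear complex II, -0.02 for complex III, 0.37 for complex IV and -0.07 for the ATP synthase. Summed over the 78 genes, low-share cells ranged from 23095 to 82741 TPM with a median of 58540.4, and other Ecad- cells from 27775 to 86278 TPM with a median of 54746. The ranges overlapped almost wholly. The lowest ratio of a nuclear subunit gene was -1.26, against -5.68 for the highest mitochondrial gene.

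Single subunits differed in both directions. Uqcr10 and Uqcrq, small subunits of complex III, had means of 1948 and 870.3 TPM and 2327 and 1127 TPM in low-share and other Ecad- cells, log2 ratios of 1.16 and 1.04. Cox7a2l, which joins complexes III and IV into supercomplexes, stood at 1.19 and Ndufa7 of complex I at 1.05. On the lower side were Ndufb2 at -1.26 and Ndufv3 at -1.14, both of complex I, and Atpif1, the inhibitor of the ATP synthase, at -1.21 (-0.72, -0.49 and -2.12 within sets).

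**Figure D2:**
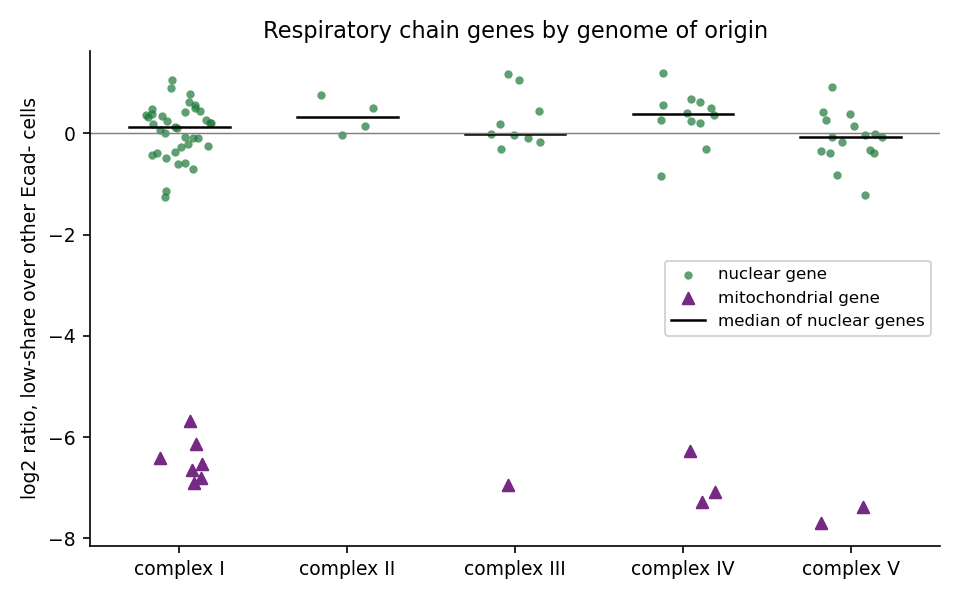
Log2 ratio of low-share over other Ecad- cells (vertical axis) for each respiratory chain gene by complex. Green points are nuclear genes above the floor on TPM rescaled without mt- genes, black bars their medians, and purple triangles the mitochondrial genes on the deposited TPM scale. Nuclear medians lie between -0.07 and 0.37 and the mitochondrial genes, which selected the cells, between -7.70 and -5.68.

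The machinery that copies, reads and serves the mitochondrial genome was likewise near the median of all genes. The 38 genes of mitochondrial DNA maintenance, transcription and RNA processing had a median of 0.07, with 3 at least 2-fold higher and 6 at least 2-fold lower. Tfam, which packages mitochondrial DNA and starts its transcription, had 0, 30.0 and 178 TPM as lowest, median and highest value in low-share cells and 0, 53.2 and 271 TPM in the other Ecad- cells. Low-share cells were thus on average lower in Tfam, with much overlap, at a log2 ratio of -0.73, but set 3 had the opposite sign (-0.90, -1.22 and 0.55 within sets). Endog, a mitochondrial nuclease, stood at -2.17, Lig3, the ligase of mitochondrial DNA, at -1.76, and Hsd17b10, a subunit of mitochondrial RNase P, at -1.35. Levels of Endog were low, with means of 2.32 and 14.0 TPM and 7 of 40 and 31 of 57 cells at 1 TPM. Those of Lig3 were 1.87 and 8.69 TPM, with 12 of 40 and 31 of 57 such cells. Polg2, the accessory subunit of the mitochondrial DNA polymerase, was higher at 1.31. The 76 mitochondrial ribosomal protein genes had a median of 0.06 (0.12, 0.05 and -0.13 within sets), import genes 0.26, chaperones and proteases 0.05, and tricarboxylic acid cycle genes -0.21. Hspa9, the mitochondrial Hsp70, had means of 393 and 223 TPM (log2 ratio 0.81), and Trap1, the mitochondrial Hsp90, 14.4 and 41.0 TPM (-1.45). The mitophagy list, 18 genes for the removal of mitochondria by autophagy, had a median of 0.11, in which the receptor Nbr1 stood at 1.37 and the fusion gene Mfn1 at -1.18.

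Genes of the vacuolar proton pump showed the highest median of the gene lists chosen for this comparison. Of 16 subunit genes, 15 lay above the median of all genes, 12 were at least 2-fold higher against the background of 9.61%, and 14 were higher in each set against 23.3%. The list median was 1.29, with 2.04, 1.11 and 1.07 within sets 1 to 3. Atp6v0d1, which couples the membrane and cytosolic parts of the pump, had 0, 242 and 2011 TPM as lowest, median and highest value in low-share cells and 0, 39.6 and 555 TPM in the other Ecad- cells. Most low-share cells stood above the median of the other class, and the ranges overlapped. The log2 ratio of Atp6v0d1 was 2.28 (3.29, 2.15 and 1.44 within sets). Atp6v1c1 followed at 2.09, Atp6v1b2 at 1.95, Atp6v1d at 1.87 and Atp6v1a, the catalytic subunit, at 1.55. The exception was Atp6v0a1, a membrane subunit, at -0.52. Summed over the 16 genes, 36 of 40 low-share cells lay above the median of the other Ecad- cells, which was 4709 TPM against 12060.3 TPM in low-share and 3425 TPM in Ecad+ cells. Against the median of their own set these were 6 of 6, 12 of 12 and 18 of 22 cells.

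Lysosomal and autophagy genes beyond the pump stood higher as well. Among 37 members past the floor, 31 exceeded the median of all genes, 20 were at least 2-fold higher and 1 at least 2-fold lower, and 27 were higher in each set. The median was 1.09 (1.61, 0.70 and 0.73 within sets). Hexa, a subunit of the lysosomal hexosaminidase, had 0, 92.7 and 1319 TPM as lowest, median and highest value in low-share cells and 0, 0.124 and 893 TPM in the other Ecad- cells. In the latter class the median was thus close to 0, while the upper quartile was 27.9 TPM. Hexa reached 1 TPM in 36 of 40 low-share and 26 of 57 other Ecad- cells. Its log2 ratio was 2.18 (3.91, 1.05 and 1.62 within sets), and 2.78 without a single other Ecad- cell of high Hexa. Map1lc3b, the autophagosome protein LC3B, had medians of 406 and 138 TPM and a log2 ratio of 1.90. The protease gene Ctsd stood at 1.54, Gla, the alpha-galactosidase, at 1.44, the calcium channel Mcoln1 at 1.25, and the membrane proteins Lamp1 and Lamp2 at 1.17 and 1.09.

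Members of the list that sense nutrients at the lysosome were among the highest. Rragd and Rragc encode Rag GTPases that recruit the growth kinase mTORC1, and Flcn and its partner Fnip1 control them. Fnip1 had 0.130, 34.9 and 699 TPM as lowest, median and highest value in low-share and 0, 7.12 and 133 TPM in other Ecad- cells, a log2 ratio of 2.12 (3.21, 1.44 and 1.92 within sets). Flcn stood at 1.60, Rragc at 1.42 (3.07, 1.38 and 0.14 within sets), and Rragd at 2.97 with 19 of 40 low-share and 7 of 57 other Ecad- cells at 1 TPM. Rragd, with means of 19.5 and 1.62 TPM, passed the floor only through its level in low-share cells. Sqstm1, the autophagy receptor p62, differed less, with medians of 1127 and 455 TPM and a log2 ratio of 0.92. The exception on the lower side was Glb1, the lysosomal beta-galactosidase, with means of 2.77 and 18.3 TPM (-2.35). Tfe3, which encodes one of the regulators of these genes, stood at -0.10, with 0.13, -0.59 and 1.81 within sets. Summed over the list, 39 of 40 low-share cells exceeded the median of the other Ecad- cells (11050 against 5081 TPM). The sums of pump and lysosomal genes went together across cells within both classes, with Spearman correlations of 0.77 over 40 low-share and 0.82 over 57 other Ecad- cells, values that share libraries and depth.

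Since these lists stood higher together, promoters were searched for TCACGTGA, the core of the CLEAR element known from lysosomal genes, on either strand in the 250 bases before the RefSeq start (GRCm38.p6). The 8 letters contain the shorter E-box CACGTG, so both searches overlap. It was found in 1 of 11 pump and 4 of 30 lysosomal promoters. The 4 of these 5 whose genes were at least 2-fold higher are shown 5′ to 3′ on the strand of the gene with the match in capitals, to let the element be seen in place.
Atp6v1a, chr16:44139260-44139509, minus strand: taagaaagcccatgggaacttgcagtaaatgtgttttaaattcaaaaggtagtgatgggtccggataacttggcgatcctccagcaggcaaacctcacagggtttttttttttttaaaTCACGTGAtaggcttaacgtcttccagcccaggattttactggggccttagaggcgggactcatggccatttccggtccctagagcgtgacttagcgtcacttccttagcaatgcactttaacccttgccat
Ctsd, chr7:142387828-142388077, minus strand: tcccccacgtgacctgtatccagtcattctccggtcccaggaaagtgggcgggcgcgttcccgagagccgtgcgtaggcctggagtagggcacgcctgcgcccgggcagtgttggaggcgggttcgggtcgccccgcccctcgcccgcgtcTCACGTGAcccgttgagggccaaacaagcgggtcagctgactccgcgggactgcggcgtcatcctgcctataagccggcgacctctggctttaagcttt
Gla, chrX:134601006-134601255, minus strand, 2 matches: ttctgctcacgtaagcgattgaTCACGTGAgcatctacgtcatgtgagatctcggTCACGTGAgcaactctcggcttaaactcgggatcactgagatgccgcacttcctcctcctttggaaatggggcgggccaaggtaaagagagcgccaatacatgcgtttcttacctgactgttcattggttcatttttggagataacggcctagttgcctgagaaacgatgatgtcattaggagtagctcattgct
Mcoln1, chr8:3500269-3500518, plus strand: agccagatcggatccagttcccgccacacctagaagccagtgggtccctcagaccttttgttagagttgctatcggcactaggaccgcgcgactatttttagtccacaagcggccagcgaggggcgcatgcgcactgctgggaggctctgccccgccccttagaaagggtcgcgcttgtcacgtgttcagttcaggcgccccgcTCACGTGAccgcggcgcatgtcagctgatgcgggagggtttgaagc

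In Atp6v1a the match begins 132 bases before the start, in Ctsd 99 and in Mcoln1 46. The element was not confined to the lists. Of 5768 gene symbols above the floor with a RefSeq promoter, 129 held it, or 2.24%. It was found in 33 of 502 promoters of genes at least 2-fold higher (6.57%) and in 3 of 670 of genes at least 2-fold lower (0.448%). Read the other way, 25.6% of the 129 genes were at least 2-fold higher and 2.33% at least 2-fold lower, against 8.70% and 11.6% of all genes with a promoter. Their median log2 ratio was 0.48, with 0.72, 0.47 and 0.40 within sets. Without members of the 2 lists it was 0.47 over 124 genes, of which 23.4% were at least 2-fold higher. Among these, chosen after their values were seen, were Cln3, a lysosomal membrane protein gene, at 2.02, the lysosomal transporter Mfsd1 at 1.88, the autophagy enzyme Atg3 at 1.60 and Crebrf, a regulator of the unfolded protein response, at 2.28. Genes with CACGTG but not the longer element had a median of 0.04 over 483 genes, of which 14.5% were at least 2-fold higher and 11.6% at least 2-fold lower, so a share of higher genes above 8.70% was not limited to the longer element. A match describes these letters and is not evidence of binding.

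**Figure D3:**
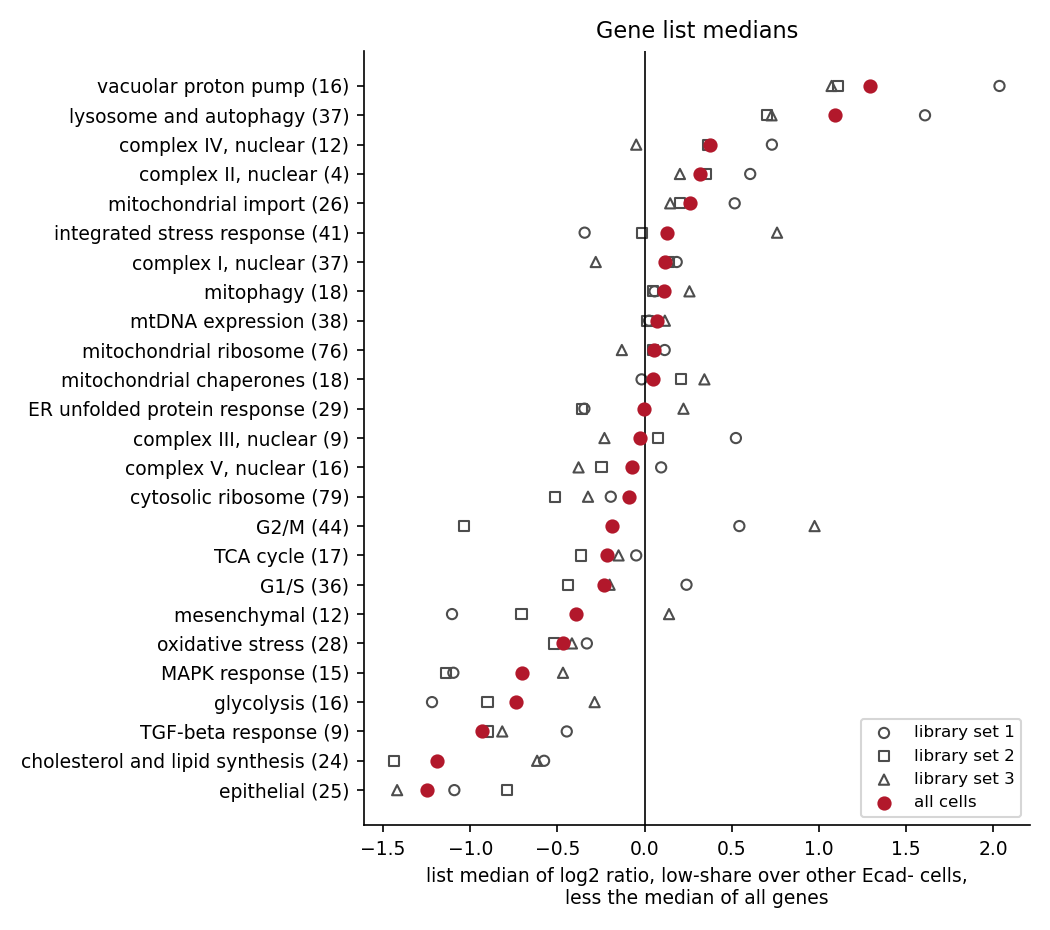
Median log2 ratio of low-share over other Ecad- cells for 25 gene lists, less the median of all genes (horizontal axis). Numbers of genes above the floor are in parentheses, filled red circles are all cells, and open circles, squares and triangles are library sets 1, 2 and 3. Proton pump, lysosomal, complex II, import, mtDNA expression and mitophagy lists lie above 0 in every set, and the epithelial, cholesterol, TGF-beta, glycolysis, MAPK, oxidative stress, TCA cycle and cytosolic ribosome lists below it in every set.

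The integrated stress response, led by the transcription factor ATF4, divided into a few high members and many near the median. Ddit3, the gene of the transcription factor CHOP, had 77.8, 627 and 4617 TPM as lowest, median and highest value in low-share cells and 0, 96.0 and 1805 TPM in the other Ecad- cells. All low-share cells had Ddit3, and 39 of 40 exceeded 100 TPM, as did 28 of 57 other Ecad- and 5 of 99 Ecad+ cells. The log2 ratio was 1.83 (2.02, 3.05 and 1.24 within sets). Ppp1r15a, the feedback phosphatase subunit for eIF2alpha, stood at 1.74 and Atf4 itself at 1.54, with means of 668 and 229 TPM. Trib3, a pseudokinase gene and target of ATF4 and CHOP, stood at 0.99, from -0.04 in set 1 to 1.58 in set 3. The list as a whole had a median of 0.13 over 41 genes, 3 of them at least 2-fold higher and 1 at least 2-fold lower, and within sets -0.34, -0.02 and 0.76, so its sign was not stable. Among amino acid synthesis enzymes, usual effectors of the response, Asns stood at 0.05, Phgdh at -0.04, Psat1 at -0.33 and Cth at -0.63. Pck2, a mitochondrial gluconeogenic enzyme, was lower at -1.68 (-4.21, -3.29 and -0.23 within sets). Its means were 3.43 and 13.2 TPM, with 7 of 40 low-share and 25 of 57 other Ecad- cells at 1 TPM. The other Ecad- cells already exceeded Ecad+ cells in this list by a median of 0.71, a comparison that shares the other Ecad- cells with the one above. The list's sums had medians of 7835, 4227 and 2238 TPM in low-share, other Ecad- and Ecad+ cells. Among the other Ecad- cells, those with a share of 1% to 10% had a median of 9046 TPM, above that of low-share cells.

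A motif of this pathway, TGATGNAAN, was found on either strand in 12 of 32 promoters of the list (37.5%), against 2.34% of all genes with a promoter, and in 0 of its 3 members that were at least 2-fold higher. All 135 genes above the floor with it in the promoter had a median of 0.09. The unfolded protein response list of the endoplasmic reticulum had a median of -0.0027 over 29 genes. Hspa5, the chaperone BiP, had medians of 317 and 409.9 TPM and a ratio of -0.27, with -0.55, -0.97 and 0.64 within sets. Crebrf stood at 2.28 and the co-chaperone Dnajb9 at 1.46, while the disulfide isomerase genes Pdia3 and Txndc5 stood at -1.20 and -1.35.

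The list of p53 targets and cell cycle inhibitors had a median of 0.34 over 16 genes, 4 of them at least 2-fold higher and 1 at least 2-fold lower, while the sign for cycling genes differed between sets. Cdkn1a, which encodes the inhibitor p21, had 0, 162 and 1004 TPM as lowest, median and highest value in low-share and 0, 19.9 and 472 TPM in other Ecad- cells. It exceeded 100 TPM in 29 of 40 and 11 of 57 cells, and its log2 ratio was 1.75 (1.96, 1.49 and 1.93 within sets). Pmaip1, the death promoter NOXA, stood at 1.93 with medians of 55.9 and 6.71 TPM. The apoptosis list of 16 genes had a median of 0.05, and Pmaip1 was its only member at least 2-fold higher. Gadd45b, another stress-induced growth arrest gene, stood at 1.63, but its medians were 10.5 and 9.15 TPM, set 3 was at -0.60, and leaving out single cells moved the ratio between 1.05 and 2.38. G2/M genes had a median of -0.19 over 44 members, none at least 2-fold higher and 7 at least 2-fold lower, and 0.54, -1.04 and 0.98 within sets. Summed G2/M levels exceeded the Ecad+ median in 4 of 40 low-share, 9 of 57 other Ecad- and 49 of 99 Ecad+ cells. Mki67, the proliferation marker, reached 1 TPM in 7, 24 and 73 of these cells. Its mean ratio of 0.01 rested on 1 cell, without which it was -0.65. Ccnb2, a mitotic cyclin, stood at -2.81 (-2.71, -2.22 and -1.81 within sets). Rrm2, a ribonucleotide reductase subunit, stood at -2.29 (-2.08, -1.97 and -0.47 within sets), or -3.02 without 1 low-share cell. For both genes the pooled ratio was lower than in any single set.

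Epithelial genes were lower in low-share than in other Ecad- cells. Among 25 members past the floor, 23 lay below the median of all genes, 14 were at least 2-fold lower against the background of 11.6%, none was at least 2-fold higher, and 17 were lower in each set against 23.6%. The median was -1.25 (-1.09, -0.79 and -1.42 within sets). Krt19, a ductal keratin, had 0, 21.4 and 386 TPM as lowest, median and highest value in low-share and 0, 449 and 3707 TPM in other Ecad- cells, with an Ecad+ median of 1141. Above 100 TPM were 9 of 40 low-share and 46 of 57 other Ecad- cells, and the ranges overlapped at the low end. Its log2 ratio was -3.33 (-4.24, -2.39 and -3.10 within sets). Lgals4, an epithelial galectin, reached 1 TPM in 19 of 40 and 52 of 57 cells and stood at -4.66, or -5.60 without the low-share cell of highest Lgals4. Further members were the claudin genes Cldn3 at -4.06 and Cldn7 at -3.10, Krt7 at -2.52, Krt8 at -1.24 and Epcam at -3.35, the last at -4.20 without 1 low-share cell. Krt18 was an exception with a ratio of -0.41, and the catenin gene Ctnnb1 stood at -0.10. Cdh1, the gene of the sorted protein, had 0, 9.94 and 39.4 TPM as lowest, median and highest value in low-share cells and 0, 17.7 and 199 TPM in other Ecad- cells, against an Ecad+ median of 51.7 TPM. The log2 ratio was -1.26 (-0.78, -0.64 and -2.05 within sets), and 27 of 40 low-share and 43 of 57 other Ecad- cells reached 1 TPM.

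The sign for mesenchymal genes differed between sets. Over 12 members the median was -0.39 (-1.10, -0.71 and 0.14 within sets). S100a6, a calcium-binding protein gene that made up 81.6% and 88.9% of the summed list in the classes, had means of 4156 and 11248 TPM. Vim, the intermediate filament vimentin, stood at -0.94 (-1.69, -1.53 and 0.20 within sets), and S100a4 at -1.37. Snai2, a repressor of Cdh1, was the one member at least 2-fold higher, with means of 36.0 and 17.0 TPM (1.04), though set 1 was at -0.40.

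**Figure D4:**
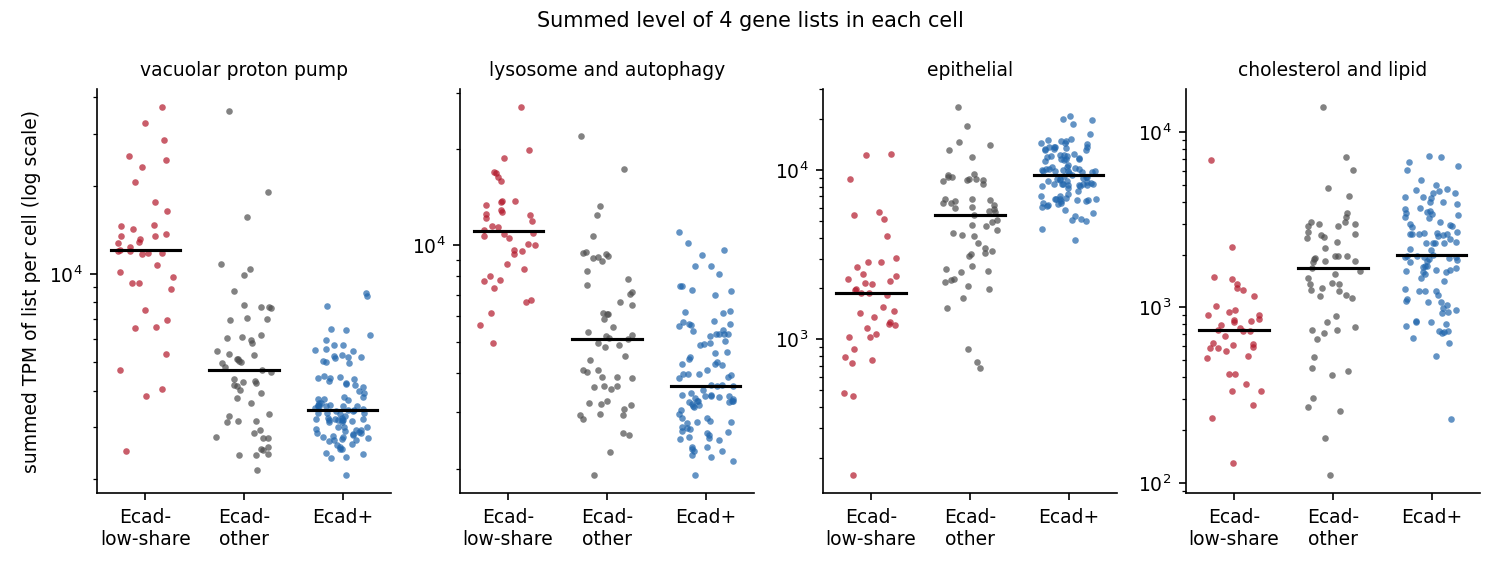
Summed TPM per cell, rescaled without mt- genes, of the proton pump, lysosome and autophagy, epithelial, and cholesterol and lipid lists (logarithmic vertical axes). Points are the 40 low-share Ecad-, 57 other Ecad- and 99 Ecad+ cells and bars are medians. The pump medians are 12060.3, 4709 and 3425 TPM and the epithelial medians 1878, 5418 and 9412 TPM, with overlapping classes throughout.

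Genes of cholesterol and fatty acid synthesis were lower. Among 24 members past the floor, 22 lay below the median of all genes, 14 were at least 2-fold lower and none at least 2-fold higher. The median was -1.19, with -0.58, -1.44 and -0.62 within sets. Fdps, which makes the farnesyl precursor of sterols, had 0, 76.7 and 492 TPM as lowest, median and highest value in low-share and 0, 348 and 3525 TPM in other Ecad- cells. Values above 492 TPM were found in the other class alone, whereas cells at 0 occurred in both, and the log2 ratio was -2.28, though -0.28 in set 3. Fdft1, the squalene synthase, stood at -2.82, the sterol carrier gene Stard4 at -3.03, and the desaturase gene Scd2 at -2.78, or -3.48 without 1 low-share cell. Summed levels were below the median of the other Ecad- cells in 38 of 40 low-share cells, and below that of their own set in 5 of 6, 11 of 12 and 17 of 22. In set 3 the medians were 602 TPM in low-share and 742 TPM in other Ecad- cells. A sterol element, TCACNCCAC, was found in 0 of 15 promoters of the list and in 1.14% of all. Of those 15 promoters, 6 belonged to members at least 2-fold lower. With so few promoters and so rare a match, nothing can be read from its absence.

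Glycolytic genes were lower by less. The median over 16 members was -0.74 (-1.22, -0.90 and -0.29 within sets), 15 lay below the median of all genes and 3 were at least 2-fold lower. Ldha, the lactate dehydrogenase, had medians of 454 and 1206 TPM (log2 ratio -1.08), and Eno1, an enolase, stood at -0.95. Aldoc, an aldolase isoform, stood apart: 1 of 40 low-share cells and 34 of 57 other Ecad- cells reached 1 TPM, with means of 0.181 and 73.8 TPM and a ratio of -5.99 (-5.56, -5.43 and -6.13 within sets). The 28 genes of the oxidative stress response had a median of -0.47 (-0.33, -0.52 and -0.42 within sets), with 20 below the median of all genes. Their summed level went the other way, with medians of 35419 TPM in low-share and 26710.1 TPM in other Ecad- cells, and Ftl1, a ferritin chain gene, made up 44.8% and 45.5% of it. Within the list Hmox1, the heme oxygenase, stood at 1.42, while catalase (Cat) stood at -1.43 and the pentose phosphate enzymes G6pdx and Pgd at -1.32 and -1.19.

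Growth factor response lists had medians below 0 too. Of 15 MAPK genes, 4 were at least 2-fold lower and 1 higher, and the median was -0.71 (-1.10, -1.14 and -0.47 within sets), with Ccnd1, cyclin D1, at medians of 0.0587 and 62.8 TPM and a ratio of -2.28, or -2.87 without 1 low-share cell. The feedback phosphatase gene Dusp6 stood at -1.26, but at 0.24 in set 3. The TGF-beta genes gave a median of -0.93 over 9 genes, 3 of them at least 2-fold lower and 1 higher, and of -0.18 without the floor on the mean. The higher one was Tgfb1, the gene of the ligand, at 1.12 (0.55, 1.75 and 1.56 within sets). Among the lower ones were Id1, a differentiation inhibitor, at -2.78 (-1.46, -3.49 and -3.59 within sets), and Ctgf, a matricellular factor, at -2.56, or -3.26 without 1 low-share cell. Interferon genes had a median of -0.43 over 12, with Tmem173, the adaptor STING, at 1 TPM in 1 of 40 low-share and 23 of 57 other Ecad- cells (-3.47, or -4.20 without 1 low-share cell). Class I antigen presentation genes had a median of 0.27 over 10: the light chain gene B2m stood at 0.56 and H2-K1 at 0.61, the immunoproteasome subunit Psmb10 at -1.95. Class I heavy chain genes are close paralogs among which reads can be split, so H2-K1 is uncertain.

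Ratios of several cytokine and heat shock genes rested on few cells. Cxcl10, a chemokine, had a ratio of -4.16 that was -0.48 without 1 other Ecad- cell and -5.53 without 1 low-share cell, and 3.99 and 3.76 with share limits of 2% and 5%. Csf2, a growth factor gene, had a ratio of 3.22 that was 1.75 without 1 low-share cell. Cxcl5 was the exception, at 1 TPM in 6 of 40 low-share and 40 of 57 other Ecad- cells (-4.08, and -3.57 to -4.66 as single cells were left out). Hspa1a, an inducible Hsp70, stood at 4.67, or 2.53 without the highest low-share cell, while its median was 0 TPM in both classes. The heat shock list of 25 genes had a median of -0.01.

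The 15 genes furthest below, ranked by the smallest difference over the 3 sets, had ratios between -7.02 and -3.32. Lgals2, a galectin, had 0, 0 and 71.4 TPM as lowest, median and highest value in low-share and 0, 604 and 12943 TPM in other Ecad- cells. It exceeded 10 TPM in 11 of 40 and 47 of 57 cells, and the log2 ratio was -7.02 (-5.58, -6.60 and -8.29 within sets). Tm4sf20, an intestinal tetraspanin-like gene, had means of 1.59 and 150.4 TPM (-5.87), and Ffar4, a fatty acid receptor, 1.02 and 64.6 TPM (-5.02). The apolipoprotein gene Apoc2 stood at -6.26, or -7.25 without 1 low-share cell, and Vsig1, an adhesion protein gene of gastric epithelium, at -4.28. Gsta4, a glutathione transferase, had medians of 13.2 and 417 TPM (-3.79), and Igfbp7, a secreted growth factor binding protein, of 0 and 157 TPM (-4.04). Ucp2, an uncoupling protein of the inner mitochondrial membrane encoded in the nucleus, was among them, at medians of 0 and 109 TPM and a ratio of -3.74 (-3.74, -3.23 and -4.36 within sets), or -4.39 without 1 low-share cell. The others of the 15 were Aldoc, Lgals4 and Cldn3, given above, and Ifi27l2b, Tmigd1, Tmem176a and Lgals3bp, at ratios between -4.82 and -3.32. Without 1 low-share cell Ifi27l2b stood at -5.15 and Tmigd1 at -5.66.

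On the higher side the same ranking gave 15 genes with ratios between 1.46 and 5.17. Tmem199, an assembly factor of the vacuolar proton pump, had 12.8, 203 and 1666 TPM as lowest, median and highest value in low-share and 0, 60.3 and 264 TPM in other Ecad- cells. All 40 low-share cells had at least 12.8 TPM, and the ratio was 2.23 (2.07, 2.40 and 2.26 within sets). Ostm1, a partner of the lysosomal chloride transporter, stood at 1.99, and Atp6v1b2 was also among the 15. Gnpda1, an enzyme of hexosamine use, had medians of 258 and 53.3 TPM (1.92). Nsun3, which methylates the mitochondrial methionine transfer RNA, reached 1 TPM in 28 of 40 and 21 of 57 cells with a ratio of 2.40 (2.04, 3.25 and 2.94 within sets). Zfp119b, a zinc finger gene, stood at 2.41 and Yjefn3, a gene of the YjeF family, at 3.07, with 29 of 40 and 8 of 57 cells at 1 TPM. Sun2, a nuclear envelope protein gene, was the highest, but 9 low-share cells above 10 TPM carried it, and the ratio was 4.26 without the highest of them. Zmym6, another of the 15, stood at 2.77, or 2.15 without 1 low-share cell.

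Cells were also placed by several sums at once. A summed pump level above, and a summed epithelial level below, the medians of the other Ecad- cells was found in 33 of 40 low-share cells, 14 of 57 other Ecad- cells and 2 of 99 Ecad+ cells. Adding a lysosomal sum above and a cholesterol sum below the respective medians left 31, 11 and 0 cells. Taken singly, the pump, lysosomal, epithelial and cholesterol conditions were met by 36, 39, 36 and 38 of the 40 low-share cells. Each was met by 28 of the 57 other Ecad- cells, a count fixed in advance because the limits are the medians of these cells. Whether the joint counts go beyond what these single counts would give was not tested. Within classes the pump and epithelial sums had Spearman correlations of 0.10 over 40 low-share and -0.15 over 57 other Ecad- cells. For the pump and cholesterol sums they were 0.16 and -0.22. The lysosomal sums gave 0.22 and -0.16 with epithelial and 0.18 and -0.19 with cholesterol sums. Higher were epithelial with cholesterol sums, at 0.39 and 0.50, and pump with lysosomal sums, at 0.77 and 0.82. Of the 21 cells with a share under 0.1%, 19 met all 4 conditions, and of the 19 with 0.1% to 1%, 12 did.

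Cells with 1% to 10%, of which there were 9, stood with the low-share cells in several lists. Their median summed epithelial level was 1765 TPM, against 1235 and 2142 TPM below 0.1% and from 0.1% to 1%, and 5418 and 6722 TPM from 10% to 25% and above. Cholesterol genes gave 742, 734, 664, 1894 and 1606 TPM over the 5 ranges. Ddit3 behaved likewise, with medians of 769.6, 611, 673, 76.8 and 31.9 TPM. The summed integrated stress response was highest at 1% to 10%, with 8097, 6551, 9046, 4227 and 3123 TPM over the 5 ranges. So was Trib3, with medians of 32.8, 29.5, 88.7, 5.68 and 0 TPM. The summed pump level was different, at 11931 and 12314 TPM in low-share cells but 5331 TPM at 1% to 10%. That was closer to the 4383 and 4134 TPM of the higher ranges, though 6 of the 9 cells exceeded the pump median of the other Ecad- cells. Single subunits were more graded over the 5 ranges. Medians were 192, 141, 108, 39.3 and 23.2 TPM for Atp6v1b2 and 243, 236, 83.4, 40.7 and 31.7 TPM for Atp6v0d1. Medians of Cdkn1a were also lower above the limit, going from 165 and 158 to 26.1 TPM. The nuclear respiratory chain sums ran 57282, 58642, 44401, 55518 and 57918 TPM, with no order. The single low-share Ecad+ cell had a pump sum of 7532 TPM, a lysosomal sum of 11269 TPM, a Ddit3 level of 486 TPM and a Krt19 level of 806 TPM. Its first 3 values lay above the Ecad+ medians of 3425, 3630.2 and 10.3 TPM.

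**Figure D5:**
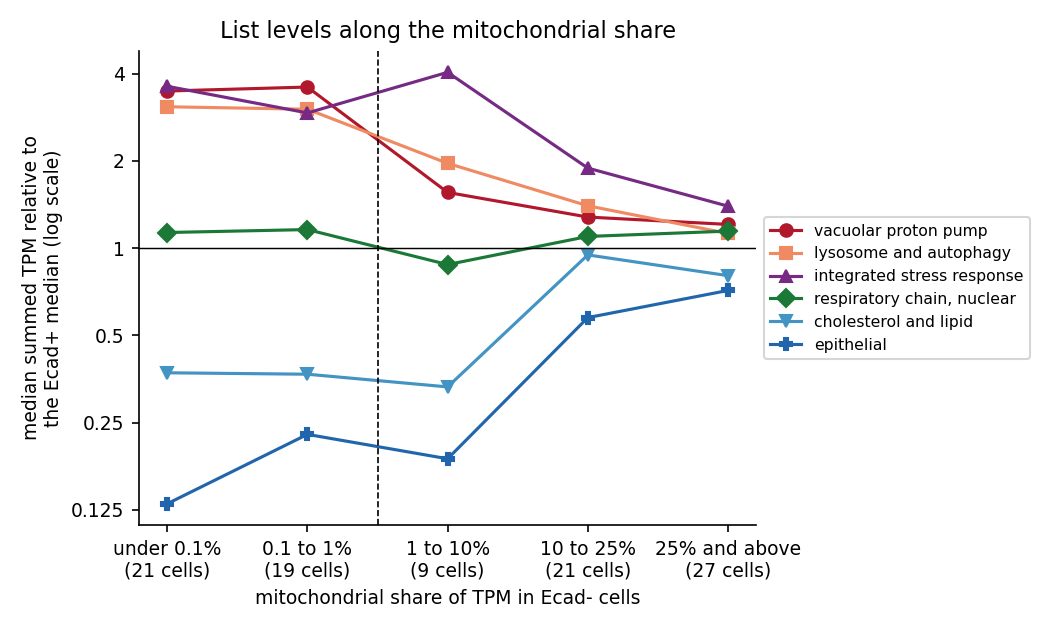
Median summed TPM of 6 gene lists in Ecad- cells grouped by mitochondrial share (horizontal axis), divided by the median of the 99 Ecad+ cells (vertical axis, logarithmic, 1 is the Ecad+ level). The dashed line marks the 1% limit. The pump goes from 12314 to 5331 TPM across the limit, while the epithelial list is still at 1765 TPM in the 9 cells just above it.

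Markers of other cell types were summed in each class. Of the fibroblast, endothelial, pancreatic acinar and endocrine, and erythroid marker lists, 0 genes were above the floor. Summed fibroblast markers ranged from 0 to 28.4 TPM in low-share and from 0 to 6.35 TPM in other Ecad- cells, with medians of 0.0887 and 0.169 TPM, and Col1a1, Col3a1 and Pdgfrb were under 1 TPM in every low-share cell. Of 21 immune markers 4 (Cd14, Cd68, Cd74 and S100a8) were above the floor, and the summed level ranged from 0 to 503 TPM (median 55.0) in low-share and from 0 to 423 TPM (median 84.2) in other Ecad- cells. Cd68, a macrophage marker that encodes a lysosomal membrane protein, made up 51.3% of the sum in low-share cells and stood at 1.05 (1.38, 2.15 and -0.32 within sets), with 22 of 40 low-share and 18 of 57 other Ecad- cells at 1 TPM. Cd14, a monocyte marker, stood at -1.71 with 22 and 46 such cells. Cd74 and S100a8 reached 1 TPM in 4 and 10 low-share cells, with highest values of 122 and 261 TPM, and their ratios changed sign as single cells were left out. Of the 21, 10 were under 1 TPM in every low-share cell, among them Ptprc, the pan-leukocyte marker. The part of such signal in the differences was not tested. Endothelial sums ranged from 0 to 71.0 and from 0 to 23.8 TPM, with Cdh5 and Kdr under 1 TPM in every low-share cell. Of 12 hepatocyte markers 1, Ttr, was above the floor, the sums ranged from 0 to 40.8 and from 0 to 912 TPM with medians of 0, and albumin (Alb) was under 1 TPM in every low-share cell. RNA integrity, cell viability and doublets were not measured or called, and their part in the differences was not tested.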

How the data were processed

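The deposited table holds log2 values per gene and cell, which the authors made from TPM. Adding 1 before the logarithm was read from the values: 2 to the power of a value, less 1, sums to 933711 to 987134 per library. Per the submitters' processing notes, FastQC 0.11.5, kallisto and the build mm10 were used. For the transcript index, the summing to genes and any cell filter the sources used here give nothing. TPM keeps no depth. Of 28987 gene rows 795 have no symbol, and 27458 IDs matched GENCODE M21.

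Python 3.11.15 with numpy 2.4.6, pandas 2.3.3, scipy 1.17.1 and matplotlib 3.10.9 was used. In the series, 5 library pairs correlating above 0.97 were averaged as 1 cell each. Each cell was rescaled to 1000000 without mt- genes, and ratios of class means were taken with a pseudocount of 1 TPM. The ratio calculation was tested on simulated data. No doublet caller was run. The members and gene lists were chosen with earlier results of these data known. Genes were named by rule: 14 fixed genes, of which 12 are in the table, from every list the 4 members above the floor whose ratios lay furthest from 0 (fewer where a list is shorter), and 15 genes in each direction ranked by their smallest centred ratio over the sets. Ranked genes had a mean of 20 TPM or more, were above 0 in 25% or more of Ecad- cells, and had a proper symbol. Other list members in the text were picked with their values in view. Some genes that the rule names are not reported here. Alternatives covered scaling, the mean, pseudocount, floor, share limit, library sets, pairs, centring and leaving out each cell. Promoters are from RefSeq (GRCm38.p6), matched by symbol for 5768 of 7913 symbols.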

Additional observations from a re-analysis of the deposited data

How the results depend on the processing

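No paired analysis was possible because the results come from no test and a number in the labels names a single cell. Each list median was taken again under each alternative, and every such value was counted. Of these values 753 moved by less than the spread over library sets, 38 moved by more and 3 reversed. A reversal was counted only for lists whose medians had the same sign in all 3 sets. Medians of some other lists changed sign without being counted as reversed. The integrated stress response went from 0.13 to -0.30 without library set 3, and G2/M from -0.19 to 0.35 with library sets weighted equally. The 3 counted as reversed were all of the ribosomal protein median, -0.09 in the report's setting and -0.49 without library set 3. It stood at 0.00242 with a share limit of 2%, 0.013 with a limit of 5% and 0.014 without library set 2. Among named genes a reversal was counted only for those at least 2-fold higher or lower. Of their values 3687 were alike, 275 moved and 3 reversed. The 3 were Hspa1b at -0.10 with means of log values, and Cxcl10 at 3.99 and 3.76 with share limits of 2% and 5%. With a pseudocount of 10 TPM, 364 genes were at least 2-fold higher and 420 lower, and the epithelial median was -0.77. Without a floor on the mean 1172 genes were higher, and with a floor of 50 TPM 197 were higher and 239 lower, with a cholesterol median of -2.32. Fewer or more genes were tested under those floors. Without library set 3 the epithelial median was -0.88, and the cause of this and of the other moves was not tested. Over 19 alternatives the proton pump median was at least 0.94 and the lysosomal median at least 0.82. The cholesterol median ranged from -2.32 to -0.81, the latter with library sets weighted equally. Depth is unknown, and with 1 sample per group no spread between cultures can be given.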

Other observations

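Further gene groups, chosen after their values were seen, stood apart. The 23 clustered histone genes above the floor (Hist1, Hist2 and Hist3 families), whose messenger RNAs mostly lack a poly(A) tail, had a median log2 ratio of 1.44 in low-share over other Ecad- cells. Of these 17 were at least 2-fold higher and none at least 2-fold lower, and the medians within library sets 1 to 3 were 2.42, 2.11 and 0.15. The 140 numbered Zfp zinc finger genes had a median of 0.31, with 23 at least 2-fold higher and 5 lower. Genes annotated as antisense had a median of 0.76 over 64 (0.62, 1.45 and 0.09 within sets), with 29 at least 2-fold higher and 6 lower. Those annotated as lincRNA had one of 0.69 over 22 (0.33, 1.30 and -0.11 within sets), with 8 at least 2-fold higher and 4 lower. Over all genes above the floor, 9.61% were at least 2-fold higher and 11.6% at least 2-fold lower. For antisense genes the strand of the counting is not given in the sources used here, so reads of overlapping genes cannot be told apart. A list of noncoding RNAs, of which 23 of 30 members including Malat1 and Neat1 are not rows of the table used, had a median of 0.89 over the 6 above the floor (1.65, 1.07 and 0.05 within sets). These 6 are Gas5, Snhg3, Snhg11, Snhg15, Tug1 and Zfas1.

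Over 5 groups of genes of equal size, from short to long transcripts, the pooled medians lay between -0.03 and 0.01. Within set 3 they were -0.20, -0.0024, 0.09, 0.10 and 0.03. The share of genes at least 2-fold higher went from 11.8% in the shortest to 7.86% in the longest group, and of those at least 2-fold lower from 14.9% to 8.95%.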
